A study of Homo sapiens with 6 samples.

Results

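The genes of the unfolded protein response and the integrated stress response were followed in HCCLM3-SR cells after knockdown of the circular RNA cDCBLD2. They are 43 genes chosen by name out of 38637 genes in the deposited table, and all 43 were found there. Of these, 41 had a mean of at least 1 TPM and were tested among 13980 genes, whereas MTHFD2 and FGF21 lay below that limit. HCCLM3-SR is a line of hepatocellular carcinoma (HCC) made resistant by long culture in rising doses of sorafenib, a multikinase inhibitor, and cDCBLD2 is a circular RNA spliced from the DCBLD2 gene. The knockdown group held 3 libraries of these cells transfected with siRNA to cDCBLD2, and the control group held 3 libraries transfected with control siRNA. Both groups were exposed to 5 µM sorafenib and carried the siRNA for 3 days, so no library shows the genes without drug or without transfection. Each library was made by PolyA-Seq, the sequencing of polyadenylated RNA, and nothing in the labels says whether the 3 libraries of a group came from separate cultures. The p-values below therefore measure the spread between these libraries, which may be technical.

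Protein that fails to fold in the endoplasmic reticulum (ER) is sensed by IRE1 (gene ERN1), PERK (gene EIF2AK3) and ATF6. IRE1 splices XBP1 mRNA and PERK phosphorylates the initiation factor eIF2α, which slows translation in general but favours that of ATF4. The kinase GCN2 (gene EIF2AK4) reaches the same factor when amino acids run short, and this shared route is the integrated stress response. ATF4 and its partners induce genes of amino acid synthesis and of stress feedback, while ATF6 and spliced XBP1 induce ER chaperones and the machinery that degrades misfolded ER protein. Liver cells secrete much protein and rely on this system.

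The promoters of the chaperone and amino acid genes carry short elements by which these factors are known to act, and the elements found in the members are shown here so that the values below can be read beside them. Promoter windows of 300 bases, 250 before and 50 after the start, were taken from RefSeq (GRCh38.p14) for 40 of the 43 members, while PDIA3, PSPH and SHMT2 had no window. The ER stress response element (ERSE), written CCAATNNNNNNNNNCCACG, was matched on both strands in 0.0769% of the 35116 windows of all genes and in those of 7 members, namely CALR, CANX, CRELD2, HSP90B1, HSPA5, PDIA6 and XBP1. Its short form ERSE-II, in which ATTGG and CCACG stand a single base apart, was matched in 0.0541% of windows and in HERPUD1, HYOU1 and SDF2L1. The core of the amino acid response element (AARE), TGATGNAA, was matched in 3.62% of windows and in ASNS, ATF3, CEBPG, CHAC1, FGF21 and HERPUD1. The sites below are those of members whose values are described in detail, each read 5′ to 3′ on the strand of its gene with the matched letters in capitals (HSP90B1 has a pair of ERSE sites, and those of CALR, CHAC1 and HERPUD1 AARE and the second of HSP90B1 are on the opposite strand). The ASNS, CANX and CEBPG sites precede starts inside the annotated span of the gene, and the other printed sites lie outside it. No matched stretch of one motif overlaps that of another in these sites.
HSPA5 ERSE, chr9:125241386-125241414, minus strand: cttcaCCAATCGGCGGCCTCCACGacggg
XBP1 ERSE, chr22:28800598-28800626, minus strand: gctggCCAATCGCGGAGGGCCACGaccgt
CALR ERSE, chr19:12938379-12938407, plus strand: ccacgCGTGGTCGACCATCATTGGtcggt
CANX ERSE, chr5:179698773-179698801, plus strand: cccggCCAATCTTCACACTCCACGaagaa
HSP90B1 ERSE, chr12:103930211-103930239, plus strand: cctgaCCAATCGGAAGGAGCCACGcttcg
HSP90B1 ERSE, chr12:103930316-103930344, plus strand: gggtgCGTGGTGCGGCGCGATTGGtgggt
HERPUD1 ERSE-II, chr16:56932016-56932044, plus strand: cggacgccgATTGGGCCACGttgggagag
HERPUD1 AARE core, chr16:56931955-56931984, plus strand: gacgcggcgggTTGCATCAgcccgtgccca
ASNS AARE core, chr7:97872458-97872487, minus strand: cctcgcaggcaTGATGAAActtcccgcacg
CEBPG AARE core, chr19:33374060-33374089, plus strand: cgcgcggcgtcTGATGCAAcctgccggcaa
ATF3 AARE core, chr1:212565205-212565234, plus strand: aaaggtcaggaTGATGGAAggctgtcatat
CHAC1 AARE core, chr15:40953251-40953280, plus strand: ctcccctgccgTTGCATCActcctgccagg
A match is a description of letters and does not show that a factor was bound in these cells.

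The deposited values are TPM, reads per gene divided by gene length and scaled to a sum of 1000000 per library. Between 17489570 and 23059351 reads per library were recovered from the ratios between libraries, and these are lower bounds. The host gene DCBLD2 had a mean of 38.5 ± 17.2 TPM against 56.9 ± 12.7 TPM (SD, n = 3 each), and its groups overlapped (log2 fold change -0.61, standard error 0.31, limma adjusted p = 0.253). It was lower in all 3 pairs and was called lower with the replicate block described below (adjusted p = 0.0139), and with the GC-content offset as well it was -0.29 (adjusted p = 0.0541). The libraries were made from polyadenylated RNA, and a closed circle has no end to carry a poly(A) tail. These values are therefore taken as mainly the linear mRNA, and they do not measure the knockdown of cDCBLD2. In the paper, DCBLD2 mRNA and protein showed no obvious change shared by its 3 resistant lines after cDCBLD2 knockdown. Keratin genes KRT8 (2999 to 4413 TPM) and KRT18 (1800.0 to 2555 TPM) and the liver factor HNF4A (22.9 to 31.3 TPM) were high, whereas ALB (0.189 to 1.58 TPM), TTR (0.202 to 1.64 TPM) and GPC3 (0 to 0.135 TPM), which mark differentiated or fetal-like liver cells, were at or near 0. The summed level of the 3 fibroblast markers was 3.70 to 14.2 TPM after knockdown and 1.33 to 3.47 TPM in control cells. Over the 6 libraries COL1A1 ran from 1.13 to 11.2 TPM, COL1A2 from 0 to 2.67 TPM and DCN from 0.065 to 0.287 TPM. The 11 liver and epithelial markers summed to 5840 to 7009 TPM against 4830.5 to 5649 TPM, nearly all of it KRT8 and KRT18. Of these 11, 6 had a mean of at least 1 TPM. The part of both sets in the results below was not tested. The 4 leukocyte markers summed to 102 to 131 TPM against 93.5 to 115 TPM, nearly all of it CD68, with CD3E at 0 in every library, and the 3 endothelial markers summed to 4.50 to 5.19 TPM against 3.70 to 5.72 TPM. In these bulk samples fewer cells of a type and less RNA per cell cannot be told apart. Deviations from the group means went together in libraries that share a replicate number (correlations 0.560, 0.343 and 0.362 for numbers 1, 2 and 3). Libraries numbered 2 and 3 also went together across numbers (0.247 for knockdown 3 with control 2, 0.2145 for knockdown 2 with control 3). Those numbered 1 went against the others (-0.450 to -0.376). The 3 deviations of a group sum to 0 for each gene, so these negative values follow largely from the 0.560 and are not a separate observation. The number thus mostly sets number 1 apart, and the pairing of numbers 2 and 3 is less clear. A fit with the replicate number as a block is given beside the one without it. Values of both fits are on the log2(TPM + 1) scale, which understates the change of low genes.

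Most of the stress genes were well expressed in both groups. TPM is a level per length, so it can be compared between genes. CALR, an ER chaperone that binds calcium and glycoproteins, had the highest mean over the 6 libraries at 938 TPM, followed by DDIT4 at 687 TPM, SHMT2 at 600.0 TPM, HSP90B1 at 544 TPM and HSPA5 at 505 TPM. TRIB3, a pseudokinase induced by ATF4 and DDIT3, followed at 391 TPM. The sensors stood low in this order, with mean TPM of 39.3 for EIF2AK4, 12.3 for ATF6, 9.84 for EIF2AK3 and 6.85 for ERN1. Neighbours such as HSP90B1 and HSPA5 had ranges over the libraries that overlapped, 323 to 729 TPM and 446 to 553 TPM.

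**Figure D1:**
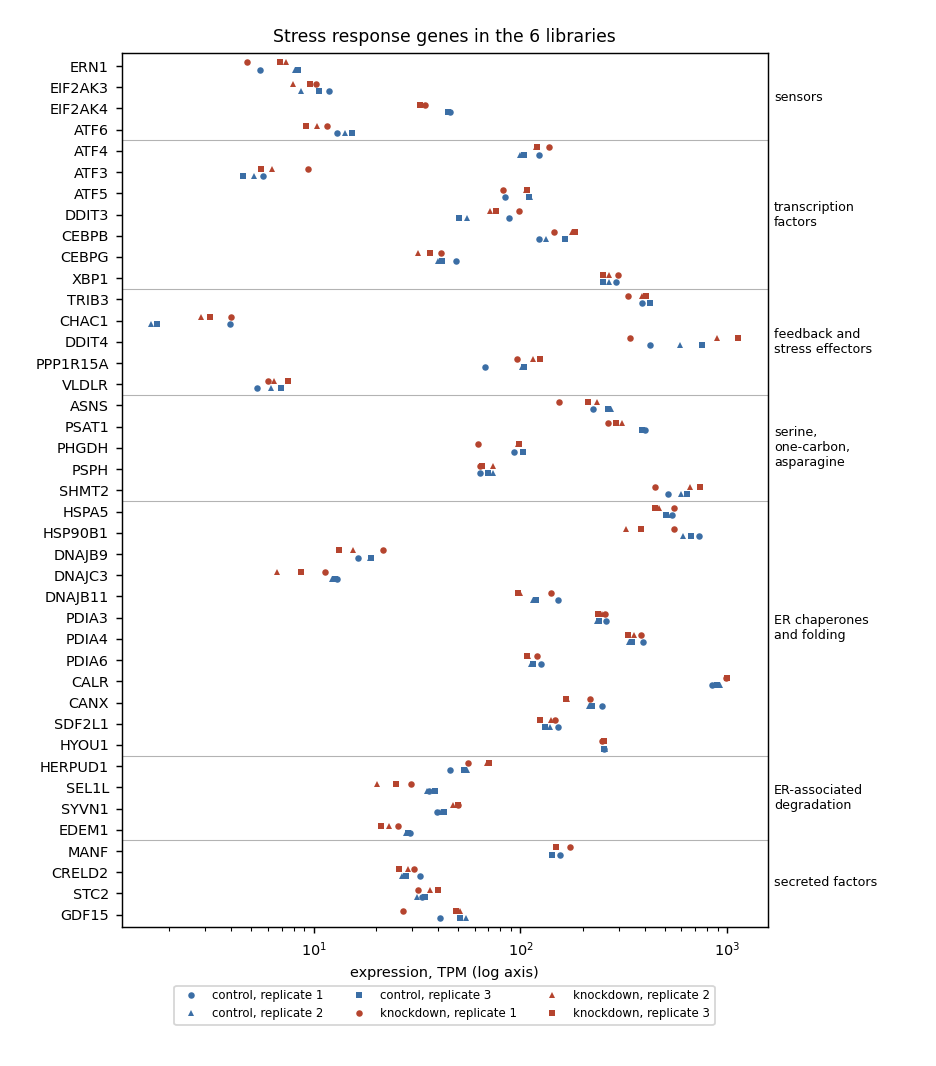
Expression in TPM (log axis) of the 41 tested genes in each of the 6 libraries, ordered by role, with knockdown libraries in red, control libraries in blue and the replicate number as the symbol. The groups overlap for 31 of the 41 genes, and the levels run from CHAC1 (1.64 to 3.98 TPM) to DDIT4 (337 to 1128 TPM) and CALR (842 to 1000.4 TPM).

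To ask whether the stress genes moved after cDCBLD2 knockdown, the groups were compared gene by gene. Without a block, limma called 0 of the 41 members higher (0.25% of all genes tested were called higher) and 1 member lower (0.629% of all genes), which was EIF2AK4. At an unadjusted p under 0.05 there were 11 of 41, or 26.8%, against 26.1% of all genes. Limma-voom on the recovered reads also called 0 members higher (1.29% of all genes) and 1 lower (1.72% of all genes). The changes were small, with a log2 fold change under 0.5 in size for 39 of 41 members. The median was -0.042 over the members and -0.084 over all genes tested, and the sign of the member median depended on scaling (0.028 after upper-quartile scaling, where the median of all genes was -0.021, and 0.044 after removal of the trend with GC content, where it was 0.005). All knockdown libraries lay above all control libraries for 3 members, or 7.32% (9.58% of all genes), and below them for 7 members, or 17.1% (22.3% of all genes).

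With the replicate block, 7 members were called higher, or 17.1% of those tested (9.94% of all genes), and 11 were called lower, or 26.8% (25.0% of all genes). The members higher were ATF4, CEBPB and DDIT3 among the transcription factors, PPP1R15A, the chaperone CALR, and HERPUD1 and SYVN1 of ER-associated degradation. Those lower were the sensors EIF2AK4 and ATF6, the transcription factor CEBPG, the amino acid enzymes ASNS and PSAT1, the chaperones HSP90B1, DNAJC3, CANX and DNAJB11, and SEL1L and EDEM1 of ER-associated degradation. The share called lower was near that of all genes, so it is not a result about these genes. Limma-voom with the block called 11 higher (17.5% of all genes) and 9 lower (20.5% of all genes), where ATF3, CHAC1, MANF and STC2 joined the members higher and CEBPG and DNAJB11 were no longer called lower. Without the 2 libraries numbered 1 the block fit called 11 higher (11.3% of all genes) and 13 lower (28.0% of all genes). Without those numbered 2 it called 0 higher (2.98% of all genes) and 4 lower (7.75% of all genes), namely ASNS, EIF2AK4, HSP90B1 and PSAT1. Without those numbered 3 it called 0 higher (1.32% of all genes) and 0 lower (3.19% of all genes), and 2 pairs remain in each of these fits. Without knockdown replicate 1 and with no block, HERPUD1 was called higher (4.64% of all genes), and EIF2AK4, ATF6, PSAT1, HSP90B1, DNAJC3, CANX, SEL1L and EDEM1 were called lower (19.8% of all genes).

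**Figure D2:**
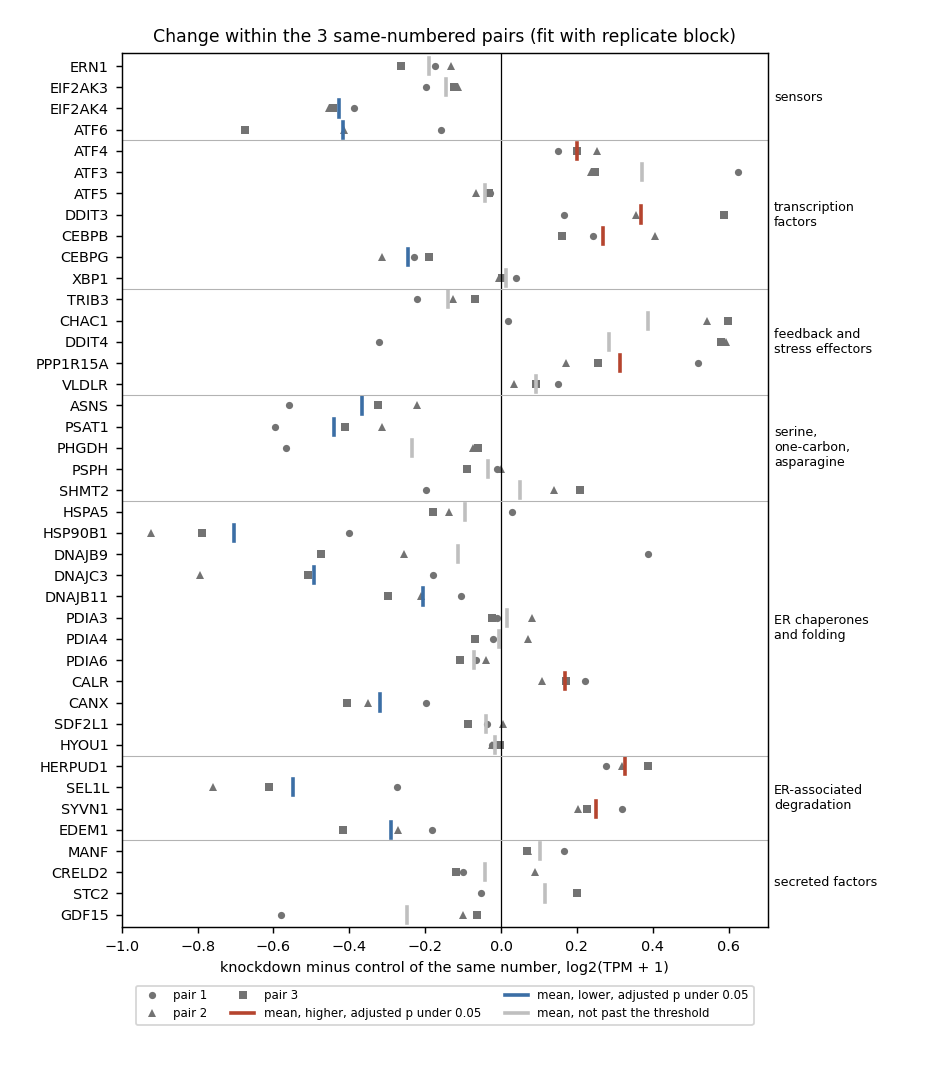
Difference between the knockdown and control library of the same number, log2(TPM + 1), for the 41 tested genes by role, with 1 symbol per pair and a bar at the mean (red or blue where the adjusted p with the replicate block was under 0.05). The 3 pairs had 1 sign in 11 genes that were higher and in 19 that were lower, and HSP90B1 had the lowest mean at -0.70. Signs by pair were not counted over all genes, of which 8718 of 13980 had a negative log2 fold change.

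The fold change of a gene went with the GC content of its transcript. Across 12688 genes Spearman's rho was 0.642, and over the 41 members it was 0.54 (genes share the libraries and are not independent replicates, so no p is given). The 7 members higher with the block had GC contents of 47.9% to 66.2% with a median of 56.3%, and the 11 lower had 37.8% to 47.3% with a median of 41.6%. When the trend with GC content was removed from each library and the replicate block kept, 10 members were called higher (13.2% of all genes) and 5 lower (12.7% of all genes). Only 7 of the 18 members called with the block kept their call and direction under both, HERPUD1, DDIT3, ATF4, CALR and SYVN1 as higher and EIF2AK4 and HSP90B1 as lower. DNAJB11 passed the threshold in opposite directions in these fits. The values with the GC-content offset are therefore given beside each gene, and whether the trend is technical or biological was not tested.

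Among the 4 sensors EIF2AK4 fell with and without the block and ATF6 fell with the block (25.0% of all genes with it and 0.629% without). All 4 had negative log2 fold changes, as did 8718 of 13980 genes tested, but that of EIF2AK3 turned positive with the GC-content offset. EIF2AK4 encodes GCN2, the kinase activated by uncharged tRNA, and lies at chr15:39934115-40035591 (GRCh38.p14). It was at 34.7, 32.6 and 32.8 TPM after knockdown and 45.7, 45 and 44.9 TPM in control cells. The knockdown libraries were all lower than the control libraries, and the means were 33.3 ± 1.17 TPM against 45.2 ± 0.463 TPM (SD, n = 3 each). It was the member called without the block (log2 fold change -0.43, standard error 0.066, limma adjusted p = 0.0495), and it stayed lower with the block (standard error 0.049 and adjusted p = 0.00586 with the replicate block) and with block and GC-content offset (-0.28, adjusted p = 0.0121). Its call without the block was lost when any library other than knockdown replicate 1 was left out (adjusted p of 0.172 and 0.214 without knockdown replicates 2 and 3, and 0.152, 0.191 and 0.222 without control replicates 1, 2 and 3), and the call with the block was lost without the libraries numbered 3 (adjusted p = 0.0524). The call without the block was also lost after upper-quartile scaling (adjusted p = 0.0531), without the filter on low values (0.0691) and with the GC-content offset (0.0743). Over all genes these settings called 0.443%, 0.00396% and 0.0158% lower. Leaving out any library other than knockdown replicate 1, with no block, gave a fit that called 0 of all genes. ATF6, a transcription factor released from the ER membrane by proteolysis, was at 11.5, 10.4 and 9.22 TPM after knockdown and 13.0, 14.2 and 15.3 TPM in control cells. Its groups did not overlap, and it fell with the block (log2 fold change -0.42, standard error 0.12, limma adjusted p = 0.0992, or 0.0380 when blocked), and with no block when knockdown replicate 1 was left out (-0.49, adjusted p = 0.0290), while with block and GC-content offset its change was -0.082 (adjusted p = 0.481). EIF2AK3, the PERK kinase, was at 10.2, 7.99 and 9.64 TPM after knockdown and 11.9, 8.71 and 10.6 TPM in control cells. ERN1, the IRE1 kinase and RNase, was at 4.79, 7.35 and 6.86 TPM after knockdown and 5.54, 8.16 and 8.43 TPM in control cells. Both overlapped between groups and passed no test (log2 fold changes -0.14 and -0.19, adjusted p with the block of 0.180 and 0.134), and EIF2AK3 changed sign to 0.093 with the GC-content offset.

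Of the 7 transcription factors, 3 rose and 1 fell with the replicate block (9.94% and 25.0% of all genes). ATF4, the central factor of the integrated stress response (chr22:39520559-39522686), was at 137, 119 and 119.6 TPM after knockdown and 123, 99.7 and 104 TPM in control cells. The groups overlapped, with replicate 1 the highest library of both, but each knockdown library was above its same-numbered control. Its log2 fold change was 0.20 (adjusted p = 0.269, and 0.0203 with the block), or 0.15 with GC-content offset and block (adjusted p = 0.0391). DDIT3 encodes CHOP, the factor tied to death under lasting ER stress, and was at 98.9, 71.0 and 76.1 TPM after knockdown and 88.1, 55.3 and 50.3 TPM in control cells. Again replicate 1 was the highest in each group, and the differences within pairs were 0.17, 0.35 and 0.59. DDIT3 rose with the block (log2 fold change 0.37, standard error 0.23, limma adjusted p = 0.348, or 0.0245 when blocked) and with the offset (0.45, adjusted p = 0.0202). It lies at chr12:57516588-57520517, and its end shares 65 bases with the end of MARS1, which had a mean of 356 TPM in control cells. Strand use in the counting is not given in the sources used here, so reads from those bases are uncertain.

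CEBPB, a C/EBP factor that pairs with ATF4, was at 145, 177 and 183 TPM after knockdown and 123, 134 and 164 TPM in control cells. The highest control library exceeded the lowest knockdown library, and the change was called with the block but not with the offset (log2 fold change 0.27, standard error 0.14, limma adjusted p = 0.256, 0.02 with the block, and 0.12 with adjusted p = 0.189 with the offset). The antisense gene CEBPB-AS1 shares 1487 of its 2108 bases, so its reads are uncertain in the same way. CEBPG, a small C/EBP protein that forms dimers with ATF4 and carries an AARE core in its promoter, was at 41.4, 31.8 and 36.5 TPM after knockdown and 48.7, 39.8 and 41.8 TPM in control cells. It was lower with the block (log2 fold change -0.25, standard error 0.12, limma adjusted p = 0.256, or 0.0203 when blocked), but its value was 0.0090 with the offset (adjusted p = 0.918). ATF3, a repressor induced by ATF4, was at 9.37, 6.29 and 5.59 TPM after knockdown and 5.72, 5.18 and 4.55 TPM in control cells. Knockdown replicate 1 stood above the other 5 libraries, and the change of 0.37 missed the threshold with the block (adjusted p = 0.0544) and passed it with block and offset (0.53, adjusted p = 0.0156). XBP1 was at 297, 267 and 252 TPM after knockdown and 289, 268 and 251 TPM in control cells. The groups nearly coincided (log2 fold change 0.013, adjusted p = 0.940, and 0.813 with the block), yet with the GC-content offset and block XBP1 was called higher by 0.34 (adjusted p = 0.00715), and its transcript has 41.5% GC. The spliced form of XBP1 cannot be read from values per gene. ATF5, a further ATF4 target, had -0.042 (adjusted p with the block 0.455), with a sign that turned to 0.028 after upper-quartile scaling, and it shares 599 bases with NUP62 and IL4I1.

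Among the feedback and stress effectors, PPP1R15A was the member that rose with the block (9.94% of all genes). It encodes GADD34, the phosphatase subunit that reverses eIF2α phosphorylation, and was at 96.5, 115 and 124 TPM after knockdown and 67.1, 102 and 104 TPM in control cells. Control replicate 1 was the lowest library, and the pairs differed by 0.52, 0.17 and 0.25 (log2 fold change 0.31, standard error 0.19, limma adjusted p = 0.330, 0.0268 with the block, 0.24 with adjusted p = 0.0798 with the offset). CHAC1, which degrades glutathione and is an ATF4 target with an AARE core, was at 3.98, 2.84 and 3.16 TPM after knockdown and 3.92, 1.64 and 1.75 TPM in control cells. The 2 libraries numbered 1 were alike while numbers 2 and 3 were higher after knockdown, and the mean change of 0.39 passed neither test on log2(TPM + 1) (adjusted p = 0.392, and 0.106 with the block). Limma-voom with the block, where no pseudocount of 1 TPM is added, gave 0.60 and called it higher (adjusted p = 0.0321). At 80 to 168 recovered reads CHAC1 was the tested member with the fewest. DDIT4, the REDD1 inhibitor of mTORC1, was at 337, 890.4 and 1128 TPM after knockdown and 421, 589.8 and 755 TPM in control cells. It was lower after knockdown in pair 1 and higher in pairs 2 and 3 (-0.32, 0.59 and 0.58), so its mean change of 0.28 had a standard error of 0.46 (adjusted p = 0.728). TRIB3 (-0.14, adjusted p with the block 0.0616) and VLDLR, a lipoprotein receptor under ATF4 (0.092, 0.432), passed neither fit without the offset. With offset and block TRIB3 was called lower (-0.24, adjusted p = 0.00968) and VLDLR higher (0.39, adjusted p = 0.0174).

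Of the 5 tested enzymes of serine, one-carbon and asparagine synthesis, 2 fell with the block (25.0% of all genes) and none rose (9.94% of all genes). None passed with the GC-content offset, where with the block 12.7% of all genes were lower and 13.2% higher. All are known ATF4 targets. PSAT1, the aminotransferase of serine synthesis, was at 265, 311 and 290.2 TPM after knockdown and 400.3, 387 and 386 TPM in control cells. The groups were apart, with means of 289 ± 23.1 TPM against 391 ± 7.98 TPM (SD, n = 3 each). For PSAT1 the log2 fold change was -0.44, with a standard error of 0.075 and limma adjusted p = 0.0544, or 0.00771 when blocked. ASNS, asparagine synthetase, was at 153, 236 and 212 TPM after knockdown and 225, 275 and 266 TPM in control cells. Control replicate 1 lay below 1 of the knockdown libraries, while the differences within pairs were all negative at -0.56, -0.22 and -0.32 (log2 fold change -0.37, standard error 0.17, limma adjusted p = 0.225, or 0.0151 when blocked). With the GC-content offset and block neither passed, at -0.13 for PSAT1 (adjusted p = 0.270) and -0.21 for ASNS (adjusted p = 0.0885). The readthrough gene CZ1P-ASNS shares the ASNS locus (chr7:97851677-97928441) and had like levels, 132, 200.5 and 181 TPM after knockdown, so the split of reads between them is uncertain. PHGDH, the first enzyme of serine synthesis, was at 62.1, 97.4 and 98.9 TPM after knockdown and 92.6, 103 and 103 TPM in control cells. Knockdown replicate 1 stood alone below the other 5 libraries, and the change of -0.23 passed neither test (adjusted p = 0.447, and 0.150 with the block). SHMT2, the mitochondrial serine hydroxymethyltransferase, had 0.049 (-0.0070 with the offset) and PSPH, the phosphatase that completes serine synthesis, had -0.033 (0.044 with the offset), with adjusted p with the block of 0.675 and 0.603.

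The ER chaperones were called in both directions, and most of their calls were lost with the GC-content offset. Of 12 members, 4 fell and 1 rose with the block (25.0% and 9.94% of all genes). For 10 the log2 fold change was negative, as for 8718 of 13980 genes tested. With the GC-content offset it was negative for 5, and for 6220 of 12688 genes. HSP90B1 encodes GRP94, the ER member of the HSP90 family (chr12:103930410-103947926), and was at 552, 323 and 384 TPM after knockdown and 729, 614 and 664 TPM in control cells. Its groups were apart, with knockdown replicate 1 nearest to the controls, and the pairs differed by -0.40, -0.92 and -0.79. Without the offset HSP90B1 had the largest change of the members tested (log2 fold change -0.70, standard error 0.19, limma adjusted p = 0.0970, and standard error 0.10 and adjusted p = 0.00808 with the replicate block), and remained lower with the offset (-0.37, adjusted p = 0.0167). Without knockdown replicate 1 it passed without a block as well (log2 fold change -0.92, adjusted p = 0.0126), and without the libraries numbered 3 it missed the threshold with the block (adjusted p = 0.0565). HSPA5, the abundant BiP chaperone that keeps IRE1, PERK and ATF6 inactive, was at 553, 469.8 and 446 TPM after knockdown and 543, 517 and 505 TPM in control cells. The groups overlapped (log2 fold change -0.10, standard error 0.093, limma adjusted p = 0.538, or 0.201 when blocked), and its sign turned with the offset (0.089, adjusted p = 0.135). Both carry ERSE sites, and the difference between HSP90B1 and HSPA5 was not tested.

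CALR was the chaperone that rose with the block, at 982, 994 and 1000.4 TPM after knockdown and 842, 923 and 888 TPM in control cells. The knockdown libraries were all higher than the control libraries, with means of 992 ± 9.15 TPM against 884 ± 40.6 TPM (SD, n = 3 each). For CALR the log2 fold change was 0.17, with a standard error of 0.062 and limma adjusted p = 0.157, or 0.0278 when blocked, and 0.16 with block and offset (adjusted p = 0.0357). CANX, the membrane-bound lectin chaperone of the same cycle, was at 216, 168 and 166 TPM after knockdown and 248, 214 and 221 TPM in control cells. It fell with the block (log2 fold change -0.32, standard error 0.12, limma adjusted p = 0.160, or 0.0107 when blocked), whereas the offset left 0.0078 (adjusted p = 0.885). CALR and CANX both hold an ERSE site, and their transcripts have 53.9% and 41.6% GC. DNAJC3, the P58IPK co-chaperone, was at 11.3, 6.68 and 8.65 TPM after knockdown and 12.9, 12.3 and 12.7 TPM in control cells. The groups were apart, with knockdown replicate 2 lowest (log2 fold change -0.49, standard error 0.18, limma adjusted p = 0.145, 0.0340 with the block, and -0.12 with adjusted p = 0.357 with the offset). DNAJB11, a further co-chaperone of BiP, was at 141, 99.1 and 97.0 TPM after knockdown and 152, 115 and 119 TPM in control cells. Replicate 1 was the highest library of both groups, and DNAJB11 was called lower with the block (log2 fold change -0.20, adjusted p = 0.0311) and higher with block and offset (0.21, adjusted p = 0.0233). The other 6 chaperones, DNAJB9, PDIA3, PDIA4, PDIA6, SDF2L1 and HYOU1, had log2 fold changes of -0.11 to 0.016, and none passed with the block. With the offset PDIA3, a disulfide isomerase, was called higher (0.27, adjusted p = 0.0140) and SDF2L1 lower (-0.19, adjusted p = 0.0363), while DNAJB9 and PDIA6 changed sign and the signs of PDIA4, SDF2L1 and HYOU1 turned with upper-quartile scaling. The calls of members with a motif depended on the fit. Of the 7 with an ERSE, CALR was called higher and CANX and HSP90B1 lower with the block (9.94% and 25.0% of all genes), while with block and GC-content offset CALR and XBP1 were called higher and HSP90B1 lower (13.2% and 12.7% of all genes). Of the 6 with an AARE core, HERPUD1 was called higher and ASNS and CEBPG lower with the block, while with block and offset HERPUD1 and ATF3 were called higher and none lower. FGF21 was not tested.

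Of the 4 members of ER-associated degradation 2 rose and 2 fell with the block (9.94% and 25.0% of all genes), and with block and GC-content offset 2 were called higher and none lower (13.2% and 12.7% of all genes). Among 7 tested genes of this process outside the members, 2 were higher and 2 lower with the block. HERPUD1, an ER membrane protein that helps to assemble the degradation complex (chr16:56932142-56944864), was at 55.7, 68.7 and 70.3 TPM after knockdown and 45.9, 54.9 and 53.5 TPM in control cells. Every knockdown library exceeded every control library, and the pairs differed by 0.28, 0.32 and 0.39. HERPUD1 rose with the block (log2 fold change 0.33, standard error 0.12, limma adjusted p = 0.150, and standard error 0.048 and adjusted p = 0.00846 with the replicate block) and with the offset (0.45, adjusted p = 0.00627), and its promoter holds both an ERSE-II site and an AARE core. SYVN1 encodes HRD1, the ubiquitin ligase of the complex, and was at 49.7, 47.4 and 50.1 TPM after knockdown and 39.7, 41.0 and 42.7 TPM in control cells. Its groups were apart (log2 fold change 0.25, standard error 0.067, limma adjusted p = 0.0945, 0.0179 with the block, and 0.20 with adjusted p = 0.0374 with the offset), and it shares 93 bases with MRPL49, with means of 98.5 ± 1.60 TPM against 96.7 ± 2.87 TPM (SD, n = 3 each). SEL1L, the partner of HRD1, was at 29.6, 20.4 and 25.0 TPM after knockdown and 36.0, 35.2 and 38.7 TPM in control cells. Its groups did not overlap either, and it fell with the block (log2 fold change -0.55, standard error 0.14, limma adjusted p = 0.0871, or 0.0135 when blocked), but did not pass with the offset (-0.17, adjusted p = 0.109). EDEM1, which picks glycoproteins for degradation, was at 25.7, 23.1 and 21.1 TPM after knockdown and 29.3, 28.1 and 28.5 TPM in control cells. Its groups were apart too and it fell with the block (log2 fold change -0.29, standard error 0.092, limma adjusted p = 0.122, or 0.0248 when blocked), and the offset left -0.079 (adjusted p = 0.293). The ligase SYVN1 and its partner SEL1L thus had opposite signs in every pair. Their transcripts have 56.3% and 39.4% GC, and the difference between them was not tested.

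None of the 4 tested secreted factors passed on log2(TPM + 1) without the block or with it (9.94% of all genes higher and 25.0% lower). However, GDF15 was called lower with block and GC-content offset, and STC2 and MANF were called higher by limma-voom with the block. GDF15, a stress cytokine, was at 27.0, 50.7 and 48.7 TPM after knockdown and 40.9, 54.5 and 50.9 TPM in control cells. Replicate 1 was the lowest library of both groups, and its change of -0.25 had adjusted p = 0.138 with the block and, with the offset, was -0.37 with adjusted p = 0.0368. STC2, stanniocalcin 2, was at 32.1, 36.4 and 39.9 TPM after knockdown and 33.3, 31.6 and 34.6 TPM in control cells. MANF, an ER-resident factor released under stress, was at 174, 149 and 149 TPM after knockdown and 155, 142 and 142 TPM in control cells. Both overlapped between groups (log2 fold changes 0.12 and 0.10, adjusted p with the block of 0.251 and 0.12), and limma-voom with the block gave 0.23 and 0.20 (adjusted p = 0.0415 and 0.0285). CRELD2, which holds an ERSE site, had -0.043 (adjusted p with the block 0.639), with a sign that turned to 0.026 after upper-quartile scaling. FGF21 and MTHFD2 were too low to test. FGF21, a hormone of fasting and ATF4 target, was listed at 0 in 4 libraries and at 0.158 TPM in knockdown replicate 2 and 0.462 TPM in control replicate 2, on 0 to 5 recovered reads. MTHFD2, the mitochondrial one-carbon enzyme, was at 0.255, 0.0704 and 0.303 TPM after knockdown and 0.164, 0.11 and 0.193 TPM in control cells, on 3 to 12 recovered reads. SHMT2, of the same role, had a mean of 600.0 TPM. Whether reads of MTHFD2 were assigned elsewhere cannot be told from these values, so they do not show that the gene is silent.

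Most of these genes differed more between replicate 1 and replicates 2 and 3 than by siRNA. Libraries numbered 1 deviated together over all genes tested (correlation 0.560), and the counts below were not made over all genes. They are therefore not a result about these genes. In 29 of 41 members the difference between replicate 1 and the mean of replicates 2 and 3 was larger in size than the difference between knockdown and control, and in 35 it had the same sign in both groups. For DDIT4 this difference was -1.57 after knockdown and -0.66 with control siRNA, and for GDF15 it was -0.86 and -0.36. DDIT3 (0.42 and 0.73) and CHAC1 (0.32 and 0.87) were instead higher in replicate 1. EIF2AK4 (0.084 and 0.025), CALR and SYVN1 differed little by number. The labels do not say what the replicate numbers stand for, and replicate 1 had the fewest recovered reads in both groups (17510030 and 17489570).

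**Figure D3:**
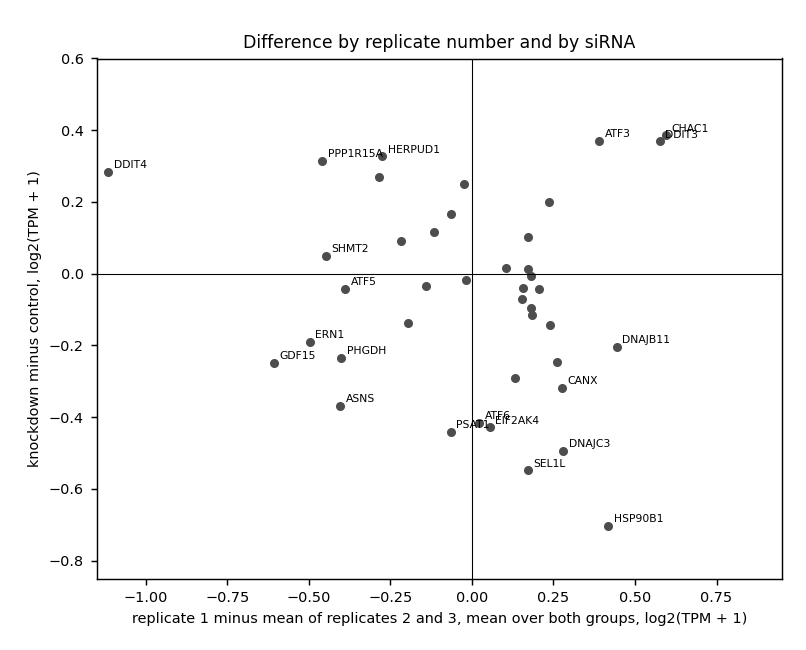
Difference by replicate number (replicate 1 minus the mean of replicates 2 and 3, averaged over both groups, log2(TPM + 1)) against the difference by siRNA (knockdown minus control, same scale) for the 41 tested genes, each a point. DDIT4 lies at -1.12 by number and 0.28 by siRNA, while HSP90B1 lies at 0.42 and -0.70 and EIF2AK4 at 0.054 and -0.43.

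The members were set beside 45 other genes of the same pathways, of which 42 were tested. Without the block 0 were higher and 1 was lower, with the block 12 were higher and 12 lower, and with block and GC-content offset 14 were higher and 9 lower, against the shares of all genes given above. The median log2 fold change was -0.049, and 0.074 with the offset. VEGFA, an angiogenic factor that ATF4 can induce, had the largest positive change, at 64.6, 123 and 173 TPM after knockdown and 53.4, 73.7 and 95.7 TPM in control cells (log2 fold change 0.62, adjusted p with the block 0.0138). Next came SESN2, a leucine sensor, with 0.46 (adjusted p with the block 0.0125) and SLC7A5, the leucine transporter LAT1, with 0.37 (0.0236). All 3 kept their call with the offset, at 0.59, 0.38 and 0.27. The largest negative change was that of MBTPS2, the site-2 protease that releases ATF6 from the membrane, at 20.1, 14.2 and 15.1 TPM after knockdown and 34.3, 28.7 and 29.1 TPM in control cells (log2 fold change -0.87, adjusted p = 0.0544, and 0.00436 with the block). SLC7A11, the cystine transporter, had -0.82 (adjusted p with the block 0.0120) and XPOT, the tRNA export factor and the gene called without the block, had -0.79 (adjusted p = 0.0444, and 0.00436 with the block). These 3 were also called lower with block and offset, at -0.41, -0.36 and -0.45. Of the amino acid transporters listed, SLC7A5 (61.1% GC) was higher and SLC7A11 (35.4% GC) lower in each of the 3 pairs. SLC38A2 (38.1% GC) was lower with the block (-0.58, adjusted p = 0.00444) but not with block and offset (-0.17, adjusted p = 0.0515). SLC3A2 and SLC7A1 passed neither fit on log2(TPM + 1) (0.087 and 0.068, adjusted p with the block of 0.183 and 0.477). The part of GC content in these differences was not tested.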

How the data were processed

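PolyA-Seq libraries of HCCLM3-SR cells were grouped by the sample labels into 3 with siRNA to cDCBLD2 and 3 with control siRNA. The authors deposited TPM per gene. The submitters' processing notes list fastp 0.20.1, HISAT2 2.1.0, StringTie 2.0 and hg38, with no role or order, and the annotation and the strand setting are not given in the sources used here. The 13980 genes whose mean TPM reached 1 were tested on log2(TPM + 1) by limma 3.58.1 (R 4.3.3), two-sided and with an intensity trend for the variance, and p-values were adjusted by Benjamini and Hochberg over all of them, with a threshold of 0.05. The limma fit was run on simulated data with known changes, which were larger than those of the members and held no trend with GC content. That check therefore does not cover changes of the size reported here. The whole read numbers behind a gene's TPM were worked out from how its values relate between libraries (all of the 17285 genes above 0 in every library came out whole within 0.02 reads), as lower bounds on depth, and their error covers counting only.

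The labels give both groups the numbers 1 to 3 without saying what they stand for. Same-numbered libraries deviated together from their group means (correlations above 0.1 in all 3 pairs), so the fit with the replicate block is printed beside the main fit. Libraries numbered 2 and 3 also deviated together across numbers (0.247 and 0.2145), so their pairing is less clear. GC content was that of the longest GENCODE release 29 transcript of a symbol, found for 90.8% of genes tested, and its trend was removed per library by loess with a span of 0.5. Coordinates, overlaps and promoters are from RefSeq, GRCh38.p14.

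The members and lists were chosen with earlier results of these data known. Library values are given for members with an adjusted p under 0.05 with or without the block, the 3 members of each role with the largest change, every sensor, and ATF4, DDIT3, XBP1 and HSPA5. From the list of other pathway genes the 3 largest changes in each direction are named. Alternatives were upper-quartile scaling, no filter, a pseudocount of 0.1, the GC-content offset, limma-voom on the recovered reads (genes reaching 10 reads in 3 libraries), the replicate block, and leaving out each library. Leaving out both libraries of a number with the block was added after seeing the data. Figures were drawn with matplotlib 3.10.9 from tables made with pandas 2.3.3 and numpy 2.4.6 in Python 3.11.15.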

Additional observations from a re-analysis of the deposited data

How the results depend on the processing

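With no block 0 members were higher, 1 was lower and the member median was -0.042, and of the other pathway genes 0 were higher and 1 lower. EIF2AK4, the member lower, lost its call and members lower came to 0 after upper-quartile scaling, 0 without a filter and 0 with the GC-content offset, and the last 2 settings gave 0 other pathway genes lower. Over all genes these settings called 0.443%, 0.00396% and 0.0158% lower, against 0.629% in the main fit. Upper-quartile scaling called 0.422% of all genes higher, against 0.25% in the main fit. Why the call of EIF2AK4 was lost was not tested. With the replicate block 7 members were higher and 11 lower, and 12 and 12 other pathway genes (9.94% of all genes higher and 25.0% lower). With the GC-content offset and block these counts were 10, 5, 14 and 9 (13.2% of all genes higher and 12.7% lower). With limma-voom on recovered reads and block they were 11, 9, 14 and 11 (17.5% of all genes higher and 20.5% lower), against 2 higher and 2 lower other pathway genes with limma-voom alone (1.29% and 1.72%). The member median was 0.028 after upper-quartile scaling, 0.044 with the GC-content offset with or without the block, and 0.057 with limma-voom (0.056 with the block). Over the fits that left out 1 library, or both libraries of a number with the block (added after seeing the data), the counts were 0 to 11 members higher and 0 to 13 lower, 0 to 12 other pathway genes higher and 0 to 13 lower, and the median ran from -0.068 to -0.024. Over all genes these fits called 0 to 11.3% higher and 0 to 28.0% lower. Of the 6 fits without the block, the 5 other than that without knockdown replicate 1 called 0 of all genes, with 2161 to 2803 genes at an unadjusted p under 0.05. Fewer libraries enter these fits. The causes of the other shifts were not tested.

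Members with a small change turned sign. After upper-quartile scaling the log2 fold changes were ATF5 0.028, PSPH 0.037, PDIA4 0.065, CRELD2 0.026, SDF2L1 0.030 and HYOU1 0.054. The GC-content offset, with or without the block, gave PSPH 0.044, SHMT2 -0.0070, CEBPG 0.0090, EIF2AK3 0.093, HSPA5 0.089, DNAJB9 0.24, DNAJB11 0.21, PDIA6 0.12 and CANX 0.0078. On recovered reads limma-voom gave ATF5 0.057, PSPH 0.066, HSPA5 0.0019, PDIA4 0.092, PDIA6 0.026, CRELD2 0.057, SDF2L1 0.059 and HYOU1 0.081, and with the replicate block ATF5 0.056, PSPH 0.065, HSPA5 0.0014, PDIA6 0.027 and CRELD2 0.056 where the value differed. When libraries were left out, the values ran for ATF5 from -0.18 to 0.084, CRELD2 from -0.11 to 0.040, DDIT4 from -0.063 to 0.81, DNAJB9 from -0.37 to 0.066, GDF15 from -0.41 to 0.038, PDIA3 from -0.017 to 0.058, PDIA4 from -0.063 to 0.058, PSPH from -0.10 to 0.013, SDF2L1 from -0.093 to 0.031, SHMT2 from -0.10 to 0.26 and for XBP1 from -0.052 to 0.067. With a pseudocount of 0.1 all 41 members stayed on the same side of the threshold with the same sign. The replicate block changed no direction, since it leaves the fold changes as they are. Few recovered reads limit FGF21, MTHFD2 and, among those tested, CHAC1 and ATF3, which rest on fewer than 240 per library. For MTHFD2 it cannot be told whether reads were assigned elsewhere.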
